A study of Homo sapiens with 27 samples.

Results

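The comparison described here set confluent U2OS cells carrying one MMP2 hairpin against confluent U2OS cells carrying the other. U2OS is an established human osteosarcoma line. MMP2sh1 (hairpin 23) and MMP2sh2 (hairpin 26) are lines that stably carry 1 of 2 shRNAs against MMP2. The paper describes the RNA-Seq control as U2OS with the pLKO.1 control vector, whereas the sample labels call it U2OS WT. By the paper's account, vector and selection are shared by all 3 lines, which the labels do not show. Cells were seeded at 30% confluence (day -2), were confluent at day 0, and were left to overgrow until day +2, all in the same medium with serum and with no other agent added. Of the 27 polyA RNA-Seq libraries of the series, the 3 MMP2sh1 and the 3 MMP2sh2 libraries of day 0 entered the test. No control library did, and the control values given below only show where a level lay. Each line is 1 transduced population, so that the hairpin, the population and the extent of MMP2 depletion cannot be told apart here, and replicates measure the spread between cultures of a line. All genes with enough reads to be tested were members: 18875 of 55882 gene symbols in the files (35255 of which had a read in these 6 libraries), and the tested genes held 99.909% of their reads.

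MMP2 encodes a secreted zinc protease of the gelatinase group that cuts denatured collagen, basement membrane collagen and growth factor binding proteins. It is made as an inactive proenzyme that MMP14 activates at the cell surface, while the TIMP proteins and RECK inhibit it. A share of the protein is found in the nucleus, where it can remove the N-terminal tail of histone H3, and cathepsin B (CTSB), better known as a lysosomal cysteine protease, has been studied as another histone H3 protease in the same cells. Osteosarcoma cells of this kind keep part of an osteoblast programme, including collagen I and osteonectin.

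MMP2 was lower in MMP2sh1 than in MMP2sh2 in every library, so that these data compare a deep with a partial depletion. In read counts scaled to library size (CPM) over the 9 libraries of day 0, MMP2 stood at 54.4, 57.9 and 66.5 in MMP2sh1, at 154, 159.5 and 161 in MMP2sh2 and at 321, 329 and 334 in the control. The MMP2sh1 level was thus 37.7% of that in MMP2sh2, a log2 fold change of -1.41 (SE 0.055, adjusted p = 5.76e-20, n = 3 per line). The same contrast gave -1.84 at day -2 and -1.52 at day +2. MMP2 lies on chromosome 16 (55423612-55540603, plus strand, GRCh37). CTSB followed the order of MMP2 across the 3 lines, with 648, 646 and 679 CPM in MMP2sh1, 902, 946 and 908 in MMP2sh2 and 979, 986 and 983 in the control. Its log2 fold change was -0.48 (SE 0.033, adjusted p = 3.21e-13). The MMP2sh2 libraries lay far closer to the control than to MMP2sh1 for this gene. At day +2 the CTSB difference was -0.12 (adjusted p = 0.0645), and the change between the days was itself called (-0.36, adjusted p = 0.00011).

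**Figure D1:**
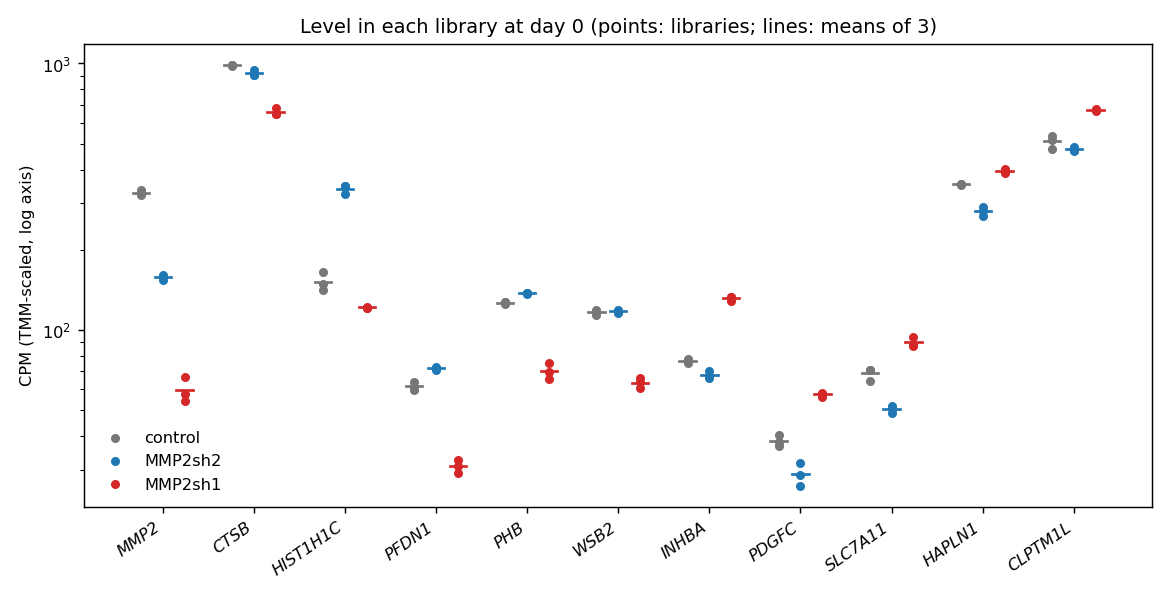
Level of 11 genes in each library of day 0, in CPM on a log axis. Points are libraries and lines are means of 3. MMP2 and CTSB descended from control through MMP2sh2 to MMP2sh1, whereas for PFDN1, PHB and WSB2 the control lay beside MMP2sh2 and for HIST1H1C it lay beside MMP2sh1.

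Across the transcriptome, 3496 of the 18875 tested genes differed between the hairpin lines at an adjusted p under 0.05 (18.5%), 1680 of them higher in MMP2sh1 (8.9%) and 1816 lower (9.62%). Most differences were small. Of the called genes 545 passed 1.5-fold, and 221 (1.17% of those tested) passed 2-fold, 162 upward and 59 downward. The genes past 2-fold were weakly expressed, with a median of 0.886 CPM for the higher and 1.05 CPM for the lower ones, against 38.1 and 58.8 CPM for all called higher and lower genes. The 3 libraries of one line lay wholly outside the 3 of the other for 3338 of the 3496 called genes, where 32.6% of all tested genes met that condition. Library totals on genes ran from 33580129 to 59142223 reads in MMP2sh1 and from 36286940 to 38005772 in MMP2sh2, and mitochondrial transcripts took 5.18% to 6.13% of reads in both lines together. No library stood apart in its correlations, although MMP2sh1 replicate 1 held the most reads and trends with GC content varied by library, as described below. On log2 CPM, Pearson correlations across genes were 0.9961 to 0.9967 for the 6 pairs within a line and 0.9932 to 0.9943 for the 9 pairs between lines. Biological variation between replicates came to 7.1% in these 6 libraries, the tightest of the series, where the other days of the hairpin lines gave 9.2% to 10.8%.

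**Figure D2:**
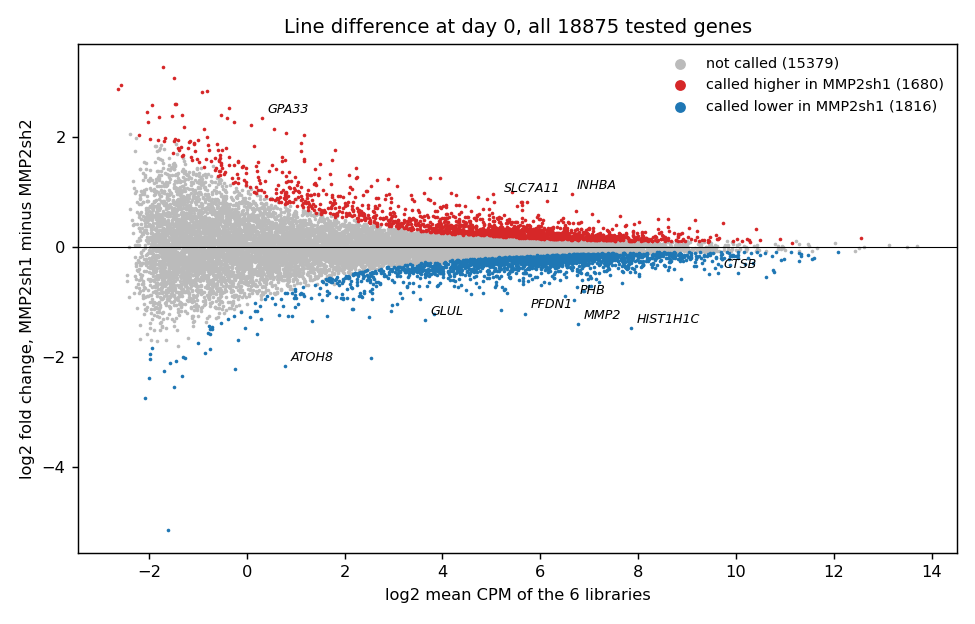
Log2 fold change of MMP2sh1 over MMP2sh2 at day 0 (y axis) against log2 mean CPM (x axis) for the 18875 tested genes, coloured by call. Called genes, 1680 higher and 1816 lower, formed a narrow band at high levels, and the widest fold changes sat at the left among genes near 1 CPM.

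The control did not always lie on the far side of MMP2sh2, as it did for MMP2. Among the 1816 genes lower in MMP2sh1, the control mean was above that of MMP2sh2 for 396, between the lines for 1124 and below that of MMP2sh1 for 296. Among the 1680 higher genes the matching counts were 392, 1074 and 214. In 116 genes of each direction the 3 lines were ordered as for MMP2 with no library out of place (6.9% of the higher and 6.39% of the lower genes). Among the 15379 genes not called, such an order held for 1.47%, and the control lay beyond MMP2sh2 in 37.03%, between the lines in 27.64% and beyond MMP2sh1 in 35.33%. The order needs hairpin lines that do not overlap, which 95.48% of called genes met against 32.58% of all tested genes. Its shares in called and uncalled genes therefore differ by the call itself and cannot show whether called genes were graded more often. A control mean also falls between the lines more easily where they lie farther apart, as in called genes. The shares between and beyond the lines therefore cannot be compared between called and uncalled genes either. These positions are a description, with no test against the control.

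The regulators of MMP2 went both ways. Of 13 tested genes for MMP2 itself and its activation and inhibition, 4 were higher and 4 lower in MMP2sh1 (median log2 fold change -0.03, beside 0.00 over all genes). The 4 higher genes were 2 without MMP2sh1 replicate 2. THBS1, a matrix protein that binds MMP2 and activates latent TGF-beta, rose from 718, 738 and 729 CPM in MMP2sh2 to 958, 989 and 979 in MMP2sh1 (log2 fold change 0.43, SE 0.031). RECK, the membrane-anchored inhibitor, was at 20.8, 22.7 and 21.2 against 18.2, 19 and 16.2 CPM (0.29), a call lost without MMP2sh1 replicate 2 or without MMP2sh2 replicate 3. CLDN1, a tight junction protein that recruits MMP2 and MMP14, was lower at 6.06, 6.16 and 4.05 against 11.6, 9.21 and 13.2 CPM (-1.04). TIMP2, which both inhibits MMP2 and bridges it to MMP14, was lower at 313, 324 and 322 against 374, 389 and 378 CPM (-0.25) and is named after its values were seen, while the activating protease MMP14 itself was not called (-0.12, adjusted p = 0.18). Of 7 other matrix metalloproteinases with enough reads, MMP3 was lower (-0.83) and MMP9 higher (0.43). The MMP9 call was lost without MMP2sh1 replicate 2 or 3 or without MMP2sh2 replicate 1 or 3. The list of cathepsins had 5 of 12 tested members lower and 1 higher (median -0.16). The lower ones were CTSF (-0.49) and CTSB and, named after their values were seen, CTSD, CTSL and CTSA, and the higher one was CTSZ (0.16), called in neither fit to all 27 libraries and lost without MMP2sh1 replicate 3 or MMP2sh2 replicate 1.

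The lowest adjusted p-values belonged to genes of unrelated roles. HIST1H1C, which encodes linker histone H1.2, held the lowest of all tested genes, at 7.16e-25. It was at 123, 121 and 122 CPM in MMP2sh1 and at 323, 349 and 346 in MMP2sh2, a log2 fold change of -1.47 (SE 0.040). The control was at 150, 141 and 165 CPM, so the line that stood out was MMP2sh2. PFDN1, a subunit of the prefoldin chaperone that hands new actin and tubulin chains to the cytosolic chaperonin, was at 32.6, 30.8 and 29 against 72.1, 72.7 and 71.2 CPM (-1.21, SE 0.061, adjusted p = 1.11e-16), with a control mean of 61.6. PHB, the mitochondrial inner membrane scaffold prohibitin, was at 75.3, 70 and 65.8 against 138, 137 and 136 CPM (-0.96, SE 0.049), with a control mean of 127. WSB2, a substrate receptor of a ubiquitin ligase, was at 66, 60.7 and 63.7 against 119, 116 and 118 CPM (-0.88), beside 117 in the control. For PFDN1, PHB and WSB2 the line that stood out was MMP2sh1. Their differences at day -2 were -0.98, -0.79 and -0.88, and at day +2 -0.99, -0.74 and -0.81. The other subunits of prefoldin moved less, with PFDN2 at -0.26 and PFDN5 not called at -0.09.

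On the higher side, INHBA, which encodes the subunit of activin A, was at 133, 134 and 129 CPM in MMP2sh1 and at 67.5, 65.9 and 70.4 in MMP2sh2 (log2 fold change 0.96, SE 0.047, adjusted p = 7.28e-17). The control mean was 76.5. PDGFC, a platelet-derived growth factor that is itself cut by extracellular proteases, was at 58.4, 56.3 and 57.7 against 28.7, 26 and 31.8 CPM (1.00, SE 0.068). SLC7A11, the cystine transporter that feeds glutathione synthesis, was at 88.3, 94.4 and 87 against 50.6, 49 and 52.2 CPM (0.84, SE 0.054), with the control between at 68.9. HAPLN1, which locks hyaluronan to proteoglycans, was at 402, 387 and 395 against 279, 268 and 289 CPM (0.51). CLPTM1L, a membrane protein linked to survival of tumour cells, was at 661, 675 and 669 against 475, 486 and 468 CPM (0.49). None of these 5 genes had overlapping libraries, nor did 95.48% of all called genes and 32.58% of all tested genes.

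The largest fold changes among genes of at least 1 CPM came from weakly expressed ones. Upward, they were GPA33 (2.34), C1orf116 (2.22), PDCD1 (2.15), PAEP (2.07), MYH16 (2.04), IFI44L (1.89), R3HDML (1.83), TNFSF15 (1.77), VAMP8 (1.74) and HLA-V (1.63). The lines did not overlap in any of them, as in 95.48% of all called genes. MYH16, a myosin gene that is a pseudogene in humans, was at 3.46, 3.75 and 3.63 against 0.754, 0.98 and 0.908 CPM. GPA33, an intestinal surface antigen, was at 2.28, 1.34 and 2.65 against 0.335, 0.28 and 0.615 CPM. Downward, beside MMP2 and HIST1H1C, they were ATOH8 (-2.16), ANKRD20A19P (-2.01), TRAF1 (-1.58), SNX19P2 (-1.35), GLUL (-1.33), PCDHB15 (-1.30), CCL26 (-1.28) and APOC1 (-1.27). GLUL, the glutamine synthetase, was at 7.8, 6.14 and 7.17 against 18.1, 18.9 and 16.7 CPM, with a control mean of 17.9. ATOH8, a basic helix-loop-helix factor, was at 0.47, 0.92 and 0.506 against 3.38, 2.27 and 2.83 CPM. TRAF1, an adaptor of TNF receptors, overlapped between the lines and lost its call without MMP2sh2 replicate 2. APOC1 lost its call without MMP2sh1 replicate 2, without MMP2sh2 replicate 1 or without MMP2sh2 replicate 2. Reads of the pseudogenes ANKRD20A19P and SNX19P2 can be lost or misassigned where near-identical copies exist, so their levels are uncertain.

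Gene lists were described by their counts of called members and by the median log2 fold change. Among protein-coding genes, to which nearly all list members belong, 10.6% were called higher and 12.1% lower (22.7% in all), and the shares in the lists are to be read beside these.

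**Figure D3:**
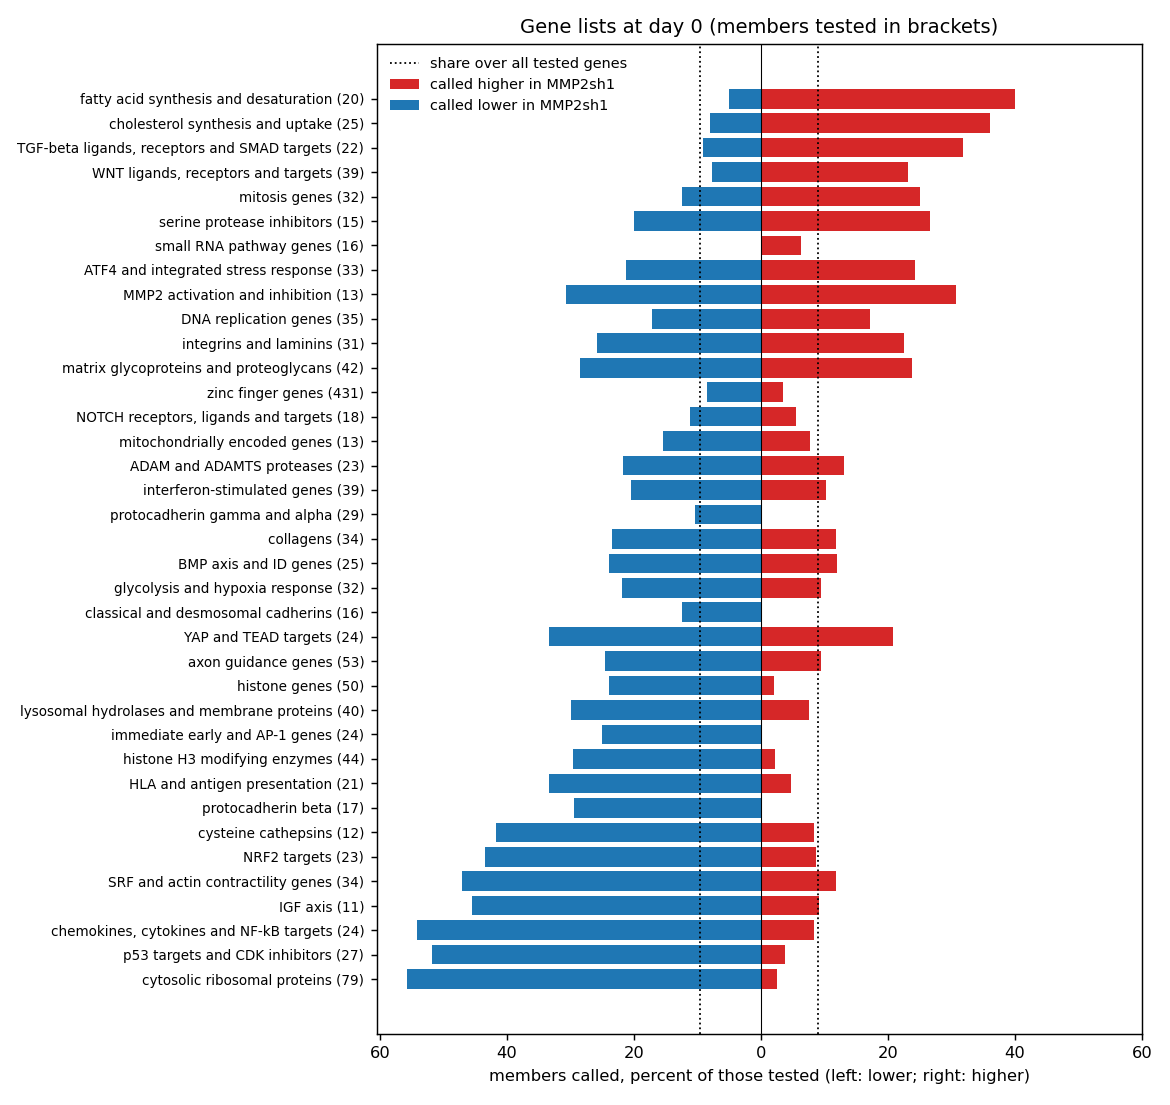
Share of tested members called higher (right) or lower (left) in MMP2sh1 at day 0 for each family or pathway list with at least 10 tested members (numbers in brackets). Marker lists are not drawn. Dotted lines mark the shares over all tested genes, 8.9% higher and 9.62% lower. Cytosolic ribosomal proteins, p53 targets and chemokines lay farthest to the left, and fatty acid and cholesterol synthesis farthest to the right.

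Cytosolic ribosomal protein genes were lower in MMP2sh1 as a block but by little. Of 79 tested, 44 were called lower and 2 higher, 73 had a value below 0, and the median was -0.10. Summed, they took 68573 to 68922 CPM in the MMP2sh1 libraries and 72535 to 75665 in the MMP2sh2 libraries, without overlap. RPS28 was at 329, 339 and 342 against 448, 484 and 417 CPM (-0.41) and RPL26 at 20.9, 21.3 and 20.7 against 28.8, 31.5 and 31.1 CPM (-0.53). RPLP0, the most abundant member, was at -0.07 and not called. Members with near-identical processed copies, where reads can be lost or misassigned, are uncertain. The count of lower members fell to 19 and 12 when the spread was estimated over all 27 libraries with edgeR and DESeq2, and the list medians at the other days were 0.02 (day -2) and -0.01 (day +2).

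Targets of p53 and inhibitors of cyclin-dependent kinases were lower as well, with 14 of 27 tested called lower, 1 higher and a median of -0.17. GDF15, a stress-induced cytokine, was at 2.27, 2.86 and 3.3 CPM in MMP2sh1 against 7.18, 4.03 and 6.97 in MMP2sh2 (log2 fold change -1.12, SE 0.199). TP53INP1, which promotes p53 activity, was at 14.7, 17.7 and 13.7 against 24.1, 19.4 and 23.3 CPM (-0.53). CDKN1A, the p21 inhibitor of cyclin-dependent kinases, named after its values were seen, was at 119, 115 and 113 against 155, 167 and 159 CPM (-0.46, adjusted p = 5.67e-10), with a control mean of 141. CCNG1, cyclin G1, was the higher one (0.25). The sign of the list median was the same at day -2 (-0.09) and day +2 (-0.19). Genes of DNA replication (6 higher and 6 lower of 35) and of mitosis (8 higher and 4 lower of 32) showed no such one-sided count. The 8 higher mitosis genes were 2 without MMP2sh1 replicate 1, 2 without MMP2sh1 replicate 2, 5 without MMP2sh2 replicate 1 and 3 without MMP2sh2 replicate 2.

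Chemokines, cytokines and NF-kB targets had 13 of 24 tested members lower and 2 higher, with a median of -0.38. CCL26, an eosinophil chemokine, was at 3.93, 2.96 and 2.95 CPM in MMP2sh1 against 7.74, 9.47 and 7.03 in MMP2sh2 (-1.28), a difference found at all 3 days (-1.25 at day -2 and -1.26 at day +2). CSF1, the growth factor of macrophages and osteoclast precursors, was at 19.3, 21.4 and 20.6 against 35, 38.3 and 36.6 CPM (-0.84), and the NF-kB feedback inhibitors TNFAIP3 and NFKBIA were at -0.67 and -0.44. These 3 genes are named after their values were seen. CSF1 lay at 35 CPM in the control, beside MMP2sh2, whereas the control means of TNFAIP3 (5.58) and NFKBIA (23.9) lay between the lines. The lowest fold change of the list, that of CXCL12 (-1.31), rested on about 1 CPM and its call was lost when any 1 library was left out. The 2 higher members, CCL20 and CX3CL1, likewise lost their calls without any 1 library. IL18, the most abundant member, was slightly lower (-0.15), a call lost without MMP2sh2 replicate 1.

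Genes of the actin cytoskeleton and its transcription factor SRF followed the same direction. SRF binds the CArG box, CC followed by 6 A or T bases and GG, in promoters of muscle and cytoskeletal genes. Of 34 tested members of its list, 16 were lower in MMP2sh1 and 4 higher (median -0.13). MYH9, the heavy chain of nonmuscle myosin IIA, was at 1241, 1252 and 1294 against 1811, 1936 and 1822 CPM (-0.55, SE 0.031, adjusted p = 1.62e-15). SRF itself was at 41.9, 42.1 and 42.1 against 58.1, 58.4 and 60 CPM (-0.48), with a control mean of 50.2. TPM1 (0.23) and MYH10 (0.19), a tropomyosin and another nonmuscle myosin, were higher, and ACTB was not called (-0.07). The counts became 11 lower and 4 higher once the trend with GC content described below was taken out. In RefSeq promoters of GRCh38.p14, searched on both strands from 250 bases before to 50 after the start, 4 of 13 lower members with a promoter (SRF, ACTG1, TPM4 and FLNA) held a CArG box, as did 3 of the 18 other tested members and 1.29% of all 35116 promoters. Members were chosen as SRF and actin genes, so the share over all promoters does not bear on the lower members. The 250 bases before the start of SRF (chr6:43171019-43171268, plus strand, GRCh38.p14) are shown because SRF is both the factor and a lower member. Capitals mark its CArG boxes, which begin 30 and 10 bases before the start.
SRF: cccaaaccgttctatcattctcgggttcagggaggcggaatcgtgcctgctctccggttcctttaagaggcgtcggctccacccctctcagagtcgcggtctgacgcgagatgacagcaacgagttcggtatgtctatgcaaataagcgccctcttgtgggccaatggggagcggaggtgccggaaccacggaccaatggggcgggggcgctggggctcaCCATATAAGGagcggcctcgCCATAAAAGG

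Histone genes were inspected because HIST1H1C led the comparison, a list that was added after values were seen. Replication-dependent histone mRNAs normally end in a stem-loop and not in a polyA tail, and polyA libraries such as these capture the polyadenylated ones. Of 50 tested histone genes, 12 were lower in MMP2sh1 and 1 was higher (median -0.13). HIST1H2BK was at 158, 162 and 154 against 244, 254 and 256 CPM (-0.66) and HIST1H2AC at 64.1, 63.1 and 61.6 against 91.8, 90.4 and 96.9 CPM (-0.56). As for HIST1H1C, the control means (166 and 61.4 CPM) lay beside MMP2sh1. HIST2H2BE was at -0.53 and HIST1H2BD at -0.49, and for these the control means (46.1 and 21.3 CPM) lay beside MMP2sh2. Histone genes have near-identical paralogs, so that reads may be lost or assigned to another copy. HIST1H1C lies on chromosome 6 (26055968-26056698, minus strand, GRCh37), HIST1H2AC (26124373-26139344) and HIST1H2BK (27114140-27114634) on the same chromosome in the major histone cluster.

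The promoters of these 3 genes are shown because the genes differed together between the lines at day 0 and day +2, and the sequences are the 250 bases before the RefSeq start on GRCh38.p14 (chr6:26056471-26056720 minus strand, chr6:26123922-26124171 plus strand and chr6:27146859-27147108 minus strand). Capitals mark TATAAA and CCAAT on either strand (CCAAT on the minus strand reads ATTGG).
HIST1H1C: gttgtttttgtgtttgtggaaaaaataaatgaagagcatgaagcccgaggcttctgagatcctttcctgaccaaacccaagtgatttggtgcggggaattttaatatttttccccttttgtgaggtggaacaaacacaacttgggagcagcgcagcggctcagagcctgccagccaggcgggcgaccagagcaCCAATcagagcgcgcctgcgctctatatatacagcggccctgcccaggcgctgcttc
HIST1H2AC: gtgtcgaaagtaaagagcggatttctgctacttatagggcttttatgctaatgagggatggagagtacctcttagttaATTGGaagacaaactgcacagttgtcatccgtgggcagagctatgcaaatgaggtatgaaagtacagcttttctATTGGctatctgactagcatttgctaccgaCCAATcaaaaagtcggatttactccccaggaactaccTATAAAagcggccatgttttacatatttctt
HIST1H2BK: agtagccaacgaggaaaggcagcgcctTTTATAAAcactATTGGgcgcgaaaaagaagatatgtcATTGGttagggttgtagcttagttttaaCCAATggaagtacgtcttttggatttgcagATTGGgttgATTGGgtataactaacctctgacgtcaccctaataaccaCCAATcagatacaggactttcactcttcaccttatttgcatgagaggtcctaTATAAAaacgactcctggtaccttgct
CCAAT stood in the windows of all 3, and TATAAA in HIST1H2AC 31 and in HIST1H2BK 27 bases before the start but not in HIST1H1C. Over the list, 7 of 11 lower genes with a promoter held TATAAA and 8 held CCAAT, and among 25 other tested histone genes the counts were 16 and 19. In all promoters the shares were 11.5% and 34.6%, which does not bear on the lower histone genes as against the others.

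Enzymes that modify histone H3, whose tail MMP2 and CTSB can remove, were lower in 13 and higher in 1 of 44 tested genes (median -0.10). KDM6B, a demethylase of H3 lysine 27, was at 24.5, 27.8 and 30.7 against 37.6, 35.1 and 32.8 CPM (-0.34), and KDM5B, a demethylase of H3 lysine 4, at 44.4, 44.1 and 46.1 against 61.9, 51.1 and 58.1 CPM (-0.34). The acetyltransferase CREBBP was at -0.17, a call lost without MMP2sh1 replicate 2. The higher one, SUZ12 of the Polycomb repressive complex, was at 0.14 and lost its call without MMP2sh1 replicate 1 or 2 and without MMP2sh2 replicate 1 or 2.

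Lysosomal and antioxidant genes were also lower more often than higher. Of 40 lysosomal hydrolases and membrane proteins, 12 were lower and 3 higher (median -0.11), the latter 1 without MMP2sh1 replicate 3 or MMP2sh2 replicate 2, and the median was -0.07 after the GC adjustment described below. PSAP, the precursor of the saposins, was at 743, 773 and 820.3 against 893, 919.8 and 902 CPM (-0.21), and GLA, alpha-galactosidase, was at -0.32. Of 23 targets of NRF2, the antioxidant transcription factor, 10 were lower and 2 higher (median -0.17, and -0.10 after the GC adjustment described below). HMOX1, heme oxygenase, was at 34.9, 38.8 and 38.6 against 58.1, 60.5 and 52 CPM (-0.60) and FTL, ferritin light chain, at -0.17, whereas SLC7A11 and TKT (0.25), the transketolase, were the higher members. The metallothioneins MT2A, at 381, 371 and 376 against 574, 608 and 511 CPM (-0.58), and MT1E (-0.44), which bind zinc and copper, were lower of 3 tested, with control means of 419 and 138 CPM.

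Clustered and growth factor genes added smaller lists. Of 17 protocadherin beta genes, adhesion proteins from 1 cluster on chromosome 5, 16 had values below 0 and 5 were called lower (median -0.36). That count fell to 1 without MMP2sh1 replicate 1 and to 2 without MMP2sh2 replicate 1. These single-exon genes are near-identical in stretches, which leaves their read counts uncertain. In the IGF axis, 5 of 11 genes were lower and 1 higher (median -0.23). IGFBP4, a binding protein that proteases release from IGF, was at 94, 101 and 93.9 against 159, 155 and 161 CPM (-0.71), while IGFBP5 was higher at 118, 117 and 145 against 102, 104 and 100.2 CPM (0.32). HLA and antigen presentation genes were lower in 7 and higher in 1 of 21 (median -0.19, and -0.09 after the GC adjustment described below), with TAP1, a peptide transporter, at -0.44 and HLA-DPA1 at 1.29, whereas B2M was not called (0.04). Immediate early genes were lower in 6 of 24 and higher in none, DUSP1 (-0.39) and IER5 (-0.36) among them.

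Lipid synthesis ran the other way. Of 25 genes of cholesterol synthesis and uptake, 9 were higher in MMP2sh1 and 2 lower (median 0.12), and of 20 genes of fatty acid synthesis and desaturation 8 were higher and 1 lower (median 0.13). MSMO1, a sterol oxidase, was at 79.9, 74.1 and 70.1 against 54.8, 49.9 and 54.1 CPM (0.50) and STARD4, a cholesterol carrier, at 104, 101 and 95.4 against 68, 70 and 76 CPM (0.50). INSIG1, which retains the sterol sensor SCAP and is named after its values were seen, was at 58.8, 53.9 and 57.6 against 40.3, 41.3 and 43.3 CPM (0.45). SREBF2, the transcription factor that drives this pathway, was lower (-0.19). FADS2, a fatty acid desaturase, was at 0.22 and ACSL4, which activates long fatty acids, at 0.29, while FASN was not called (0.02). List medians had the same sign at day -2 (0.12 for cholesterol and 0.11 for fatty acids) and at day +2 (0.11 and 0.09). The count of higher fatty acid genes was 5 in the edgeR fit to all 27 libraries.

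TGF-beta, WNT and osteoblast genes were higher more often than lower. Of 22 TGF-beta ligands, receptors and SMAD targets, 7 were higher and 2 lower (median 0.04), led by INHBA, with SMAD3, the signalling effector, among the lower (-0.29). Of 39 WNT genes, 9 were higher and 3 lower (median 0.09). WNT11, a ligand, was at 3.89, 5.39 and 4.97 against 2.54, 2.13 and 2.83 CPM (0.92), and SFRP1, a secreted antagonist, was at 51.3, 50.6 and 52.4 against 73.8, 64.5 and 64.3 CPM (-0.39). Of 10 tested osteoblast markers, 4 were higher and none lower (median 0.32). SPARC, osteonectin, was at 1454, 1512 and 1548 against 1181, 1214 and 1210.2 CPM (0.33, SE 0.030), and TNFRSF11B, the decoy receptor osteoprotegerin, was at 25.7, 25 and 25.9 against 16, 15 and 14.4 CPM (0.76) and is named after its values were seen. COL1A1, a chain of collagen I, was at 0.12 and overlapped between the lines. The count of 4 became 2 in DESeq2 on these libraries, in edgeR on all 27, and without MMP2sh1 replicate 2, MMP2sh1 replicate 3 or MMP2sh2 replicate 1.

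Matrix, adhesion and signalling lists split between the directions. Of 42 matrix glycoproteins and proteoglycans 10 were higher and 12 lower, with FBN2, fibrillin-2, at 97.9, 102 and 99.7 against 157, 165 and 171 CPM (-0.71) and SDC2, syndecan-2, at 114, 112 and 104 against 79.4, 82.2 and 83.7 CPM (0.44). Of 31 integrins and laminins 7 were higher and 8 lower, with ITGB3, the beta subunit of the vitronectin receptor, at 14.1, 13.3 and 12.6 against 7.26, 7.42 and 7.43 CPM (0.87) and LAMB2 at -0.45. Of 24 YAP and TEAD targets 5 were higher and 8 lower, with CTGF, a matricellular growth factor, at 220.2, 242 and 242 against 156, 153 and 172 CPM (0.56) and the coagulation initiator F3 at -0.65. Of 34 collagens 4 were higher and 8 lower. COL3A1 was at 27, 25.6 and 33.2 against 46, 52.1 and 56 CPM (-0.84), with 90.2 in the control. The collagen counts turned to 9 higher and 5 lower after the GC adjustment, and the 8 lower genes were 3 without MMP2sh1 replicate 1 and 5 without MMP2sh2 replicate 2. In 53 axon guidance genes 5 were higher and 13 lower, SEMA6A at 0.85 and EFNA2 at -1.06 among them, and after the GC adjustment 8 were higher and 9 lower. Glycolysis and hypoxia genes had 3 higher and 7 lower of 32, and 6 higher and 4 lower after that adjustment. The integrated stress response list had 8 higher and 7 lower of 33 genes. Without 1 library the 7 lower glycolysis genes were 4 (MMP2sh1 replicate 1 or MMP2sh2 replicate 1), the 8 higher stress response genes were 5 (MMP2sh1 replicate 3 or MMP2sh2 replicate 1) and the 7 lower ones 4 (MMP2sh2 replicate 2). The 5 higher YAP targets were 3 without MMP2sh1 replicate 2 or MMP2sh2 replicate 1, and the 4 higher collagens were 2 without MMP2sh1 replicate 3.

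The remaining lists split between the directions or held few calls. BMP axis genes had 3 higher and 6 lower of 25, interferon-stimulated genes 4 and 8 of 39, ADAM and ADAMTS proteases 3 and 5 of 23, serine protease inhibitors 4 and 3 of 15, NOTCH genes 1 and 2 of 18, classical and desmosomal cadherins 0 and 2 of 16, protocadherin gamma and alpha genes 0 and 3 of 29, mitochondrially encoded genes 1 and 2 of 13, genes of the small RNA pathway 1 and 0 of 16, and zinc finger genes 15 and 37 of 431. Protocadherin gamma and alpha genes, though seldom called, had 22 of 29 values below 0 and a median of -0.42, with -0.17 at day -2 and -0.24 at day +2. In all, 46.7% of the serine protease inhibitors, 36% of the BMP list and 34.8% of the ADAM list were called. Several of these counts rested on 1 library. The 37 lower zinc finger genes were 23 without MMP2sh1 replicate 1, 19 without MMP2sh1 replicate 2 and 20 without MMP2sh2 replicate 1, and the 1 higher mitochondrial gene became 6 without MMP2sh1 replicate 1. The 4 higher and 3 lower serine protease inhibitors were 2 and 1 without MMP2sh1 replicate 1, with 1 lower also without MMP2sh2 replicate 1 or 3. The 3 higher ADAM and ADAMTS genes were 1 without MMP2sh1 replicate 1 or 2 or MMP2sh2 replicate 2, the 3 lower protocadherin gamma and alpha genes were 1 without MMP2sh1 replicate 1 or 2 or MMP2sh2 replicate 1, and the 8 lower interferon-stimulated genes were 5 without MMP2sh1 replicate 2. SERPINA1, alpha-1-antitrypsin, was higher at 124, 122 and 129 against 89.4, 96.1 and 94.8 CPM (0.43), and the broad protease inhibitor A2M was lower at 15.6, 12.9 and 15.5 against 23.8, 21.5 and 21.6 CPM (-0.60). DICER1, which makes mature small RNAs from their precursors and from hairpins, was at 74.4, 78.7 and 71.3 against 65.6, 65.6 and 67.7 CPM (0.18), a call lost without MMP2sh1 replicate 2 or MMP2sh2 replicate 1.

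Markers of other cell types were near 0 for leukocytes, while every other list held reads, in both lines. The sums cover different genes and do not rank cell types. Of 10 leukocyte markers, 1 had enough reads to be tested, 3 were at 0 in all 6 libraries (CD3E, LYZ and FCGR3A), and their summed level was 0.357 to 0.746 CPM in MMP2sh1 and 0.401 to 0.70 in MMP2sh2. Epithelial markers summed to 53.3 to 55.3 CPM in MMP2sh1 and 40.8 to 42.1 in MMP2sh2, of which CLDN4, a tight junction claudin, made 36.9 and 24.8 CPM on average (0.58) and was the 1 of 8 tested called. Endothelial markers summed to 12.7 to 14.9 and 13.9 to 14.7 CPM, with TEK called of 4. Muscle markers summed to 150 to 156 and 163 to 177 CPM, nearly all of it TNNT1 (-0.17). Adipocyte and chondrocyte markers summed to 178 to 189 and 180 to 182 CPM, with PPARG lower (-0.36). Neural markers summed to 328 to 339 and 311 to 335 CPM, with SOX2 lower (-0.48) and TUBB3 and GFAP higher. In RNA from whole cultures, fewer cells that express a gene and less of its RNA per cell cannot be told apart.

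The same contrast at the other days came from other libraries. At day -2, 2009 of 18784 tested genes were called (10.7%, with 5.01% higher and 5.69% lower in MMP2sh1), and at day +2, 1527 of 19427 (7.86%, with 4.59% higher and 3.27% lower). Of the day 0 calls tested at day -2, 3118 of 3471 had the same sign there (89.83%) and 1293 were also called with that sign, which is 37.25% of them and 64.36% of the day -2 calls. At day +2 the sign was the same for 2941 of 3477 (84.58%), and 838 were called alike, 24.1% of them and 54.88% of the day +2 calls. For genes not called at day 0 the share of equal signs was 63.32% and 61.12%. Of 17728 genes tested at all 3 days, 188 were higher and 278 lower in MMP2sh1 at each, and 1783 were called at day 0 and at no other day. Over each day's own calls, called genes differed by a median of 0.28 on the log2 scale for day 0, against 0.35 for day -2 and 0.38 for day +2. Replicate spread was wider at the other days, as given above, and its part in the lower counts was not tested.

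Where the difference between the lines itself changed with the day was tested as an interaction. Between day 0 and day -2 it changed for 92 of 20091 genes (0.458%, with 0.279% more positive and 0.179% more negative at day 0), and between day 0 and day +2 for 309 of 20626 (1.5%, with 0.398% more positive and 1.1% more negative). The day 0 libraries enter both tests. HIST1H1C (interaction -0.95, adjusted p = 7.8e-09) was lower in MMP2sh1 at day -2 by less, at -0.52, and HIST1H2AC and HIST1H2BK, at 0.21 and -0.05 there, changed by -0.76 and -0.61. SLC7A11 went from -0.24 at day -2 to 0.84 at day 0 (1.08, adjusted p = 9.83e-09) and stood at 0.56 at day +2. The metallothionein MT2A was at -0.14 at day -2, -0.58 at day 0 and 0.15 at day +2, both changes called (-0.44 and -0.73). THBS1 was at 0.01 at day -2 and CTGF at 0.17, below their day 0 values by 0.42 and 0.38.

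Between day 0 and day +2, 227 of the 309 changes were negative, which means a difference more in favour of MMP2sh1 at day +2. A pair of plasminogen activators and a growth factor were level at day 0 and higher in MMP2sh1 at day +2. They are named after their values were seen. PLAU, urokinase, was at 38.5, 36.8 and 44.9 CPM in MMP2sh1 and at 42.3, 42.2 and 43.1 in MMP2sh2 at day 0 (-0.08), and at day +2 its difference was 0.64 (181 against 116 CPM on the scale of that day, interaction -0.73). PLAT, the tissue-type activator, went from -0.06 to 0.55 (-0.61) and PDGFA from -0.02 to 0.63 (-0.66). HAPLN1 and PDGFC went the other way, the first from 0.51 at day 0 to 0.02 at day +2 (0.48) and the second from 1.00 to 0.54 (0.46).

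**Figure D4:**
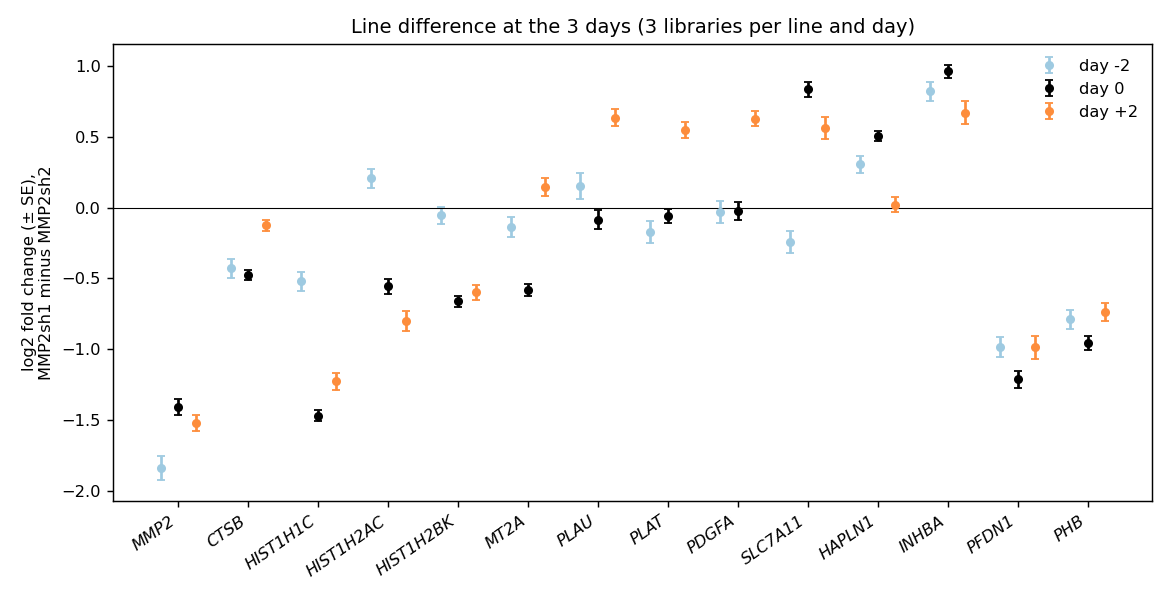
Log2 fold change of MMP2sh1 over MMP2sh2 with its SE (y axis) for 14 genes at day -2, day 0 and day +2, 3 libraries per line and day. MMP2, PFDN1, PHB and INHBA kept their sides at all 3 days, PLAU, PLAT and PDGFA left 0 at day +2, and HIST1H2AC and SLC7A11 changed sign after day -2.

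A shallow trend with base composition ran through the comparison. Genes were cut into 10 equal bins of GC content. In the bin of genes with the lowest GC content of the longest transcript (24.2% to 38.4%), the median log2 fold change was 0.11, with 361 genes called higher and 48 lower. In the bin with the highest (61.6% to 92.2%), the median was -0.10, with 58 higher and 304 lower, and each bin between lay below the previous one. The trend had the same direction at day -2 (0.11 to -0.09) and day +2 (0.04 to -0.08). Within the lines, the difference between the highest and the lowest bin also varied by library, from -0.19 to -0.04 in MMP2sh1 and from 0.02 to 0.22 in MMP2sh2 around the mean of the 6. After an adjustment for GC content, chosen after seeing the data, 3344 of 15704 genes with a GC value were called, 1668 higher and 1676 lower, and 2556 of 3332 genes called before were still called. The ribosomal list then had 45 members lower and 1 higher, the p53 list 12 and 1, the chemokine list 13 and 2, and the cholesterol list 1 and 13. Whether base composition played a part in any one gene's difference was not tested.

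**Figure D5:**
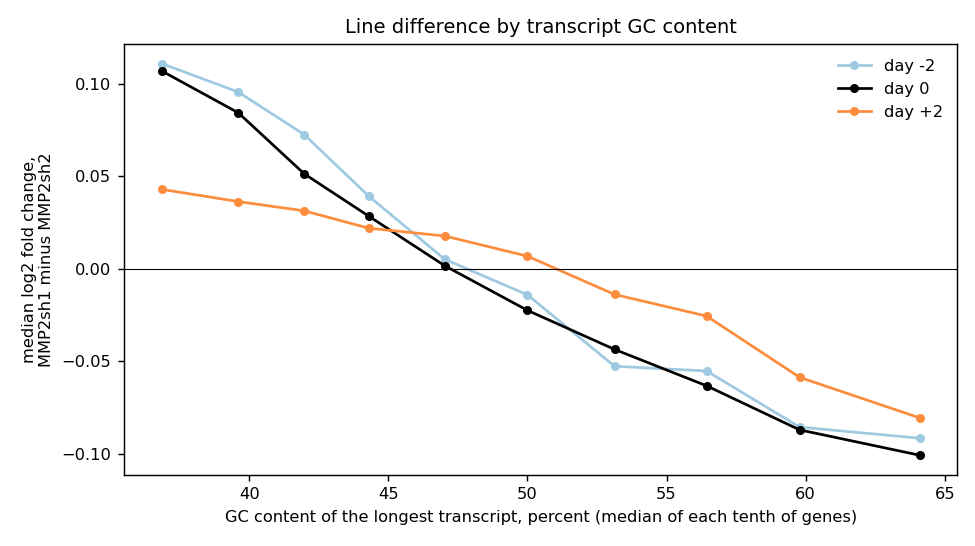
Median log2 fold change of MMP2sh1 over MMP2sh2 (y axis) in 10 bins of genes ordered by transcript GC content (x axis, median of each bin, percent), for the 3 days. At day 0 the medians descended from 0.11 to -0.10, and the line of day +2 was flatter.

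Position on the chromosomes followed this trend in part. Chromosome medians ran from -0.09 (chromosome 22) and -0.08 (chromosome 19) to 0.06 (chromosome 14) and 0.08 (chromosome 4). After the GC adjustment these chromosomes were at -0.03, -0.03, 0.05 and 0.03, in that order. The adjusted medians ran from -0.08 (chromosome 18) and -0.06 (chromosome 13) to 0.06 (chromosome 7). Over 302 runs of 50 neighbouring tested genes, the medians ran from -0.20, on chromosome 6 from POU5F1 to PPT2 in the HLA region, to 0.17, on the X chromosome from CCDC160 to XRCC6P2. Of these runs 55 lay beyond 0.1 in either direction, and 11 did after the GC adjustment. The lowest after it, at -0.20, was the run from USP14 to MPPE1 on chromosome 18, where 22 of 50 genes were lower and 1 was higher before adjustment and the medians were -0.06 at day -2 and -0.16 at day +2. The run on the X chromosome was at 0.15 after adjustment and at 0.15 and 0.10 at the other days before it. The run from POU5F1 to PPT2 was at -0.14 after adjustment. Before it, that run was at -0.15 at day -2 and at -0.10 at day +2. Copy number was not measured in these libraries, and its part was not tested. Processed pseudogenes, 457 of them tested, had a median of 0.18 at day 0 but -0.17 at day -2 and -0.06 at day +2, with 28 higher (6.13%) and 12 lower (2.63%), and their share of reads overlapped between the lines (0.201% to 0.214% in MMP2sh1 and 0.197% to 0.206% in MMP2sh2).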

How the data were processed

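PolyA RNA-Seq of U2OS lines was deposited as raw gene counts, which the authors made by trimming with Trim Galore 0.6.0, aligning with STAR 2.7.3a to hg19, removing poorly mapped reads and counting exon reads without strand in HTSeq 2.0.0. Overlapping, antisense and near-identical genes are therefore uncertain. The 5 HTSeq summary lines (18.2% to 18.6% of the counted total) were left out. Genes were kept by filterByExpr of edgeR 4.0.16 (count minimum 10, total minimum 15), scaled by TMM and compared with edgeR's quasi-likelihood test in R 4.3.3, with Benjamini-Hochberg adjustment over all tested genes and a threshold of 0.05. SE is the log2 fold change over the root of F. Changes between days were tested as line by day interactions over 12 libraries. Levels are CPM computed from the deposited counts for each day separately, so they are not compared between days. They are not per length, so sums and rankings of genes by level also depend on transcript length. Scripts were tested on simulated data. Named genes were the 10 largest changes in each direction among called genes of at least 1 CPM, those of lowest p, and the leading, most abundant or most changed members of the lists, by rule. A further 14 genes, and the list members without values per library, were named after their values were seen. Members, lists and tests were chosen with earlier results of these data known. The alternatives, DESeq2 1.42.0 among them, are described at the end. GC content and positions used 15704 genes matched by name, and promoters came from RefSeq GRCh38.p14. Some genes are not reported here.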

Additional observations from a re-analysis of the deposited data

Results flagged for a closer look

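Of the genes named by rule or named after their values were seen, these are the ones whose difference between the lines at day 0 differed from that at another day, by a test of the change itself (edgeR quasi-likelihood interaction). Each value is the day 0 log2 fold change minus that of the other day. Some of these genes were named because these same tests called them or after their values were seen. The counts of named genes are therefore partly set by that choice and are no share to hold beside all genes.

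Over all genes, 92 changed against day -2, 56 positive and 36 negative. Of the named genes 19 did, 7 positive and 12 negative. The positive ones were SLC7A11 (1.08), THBS1 (0.42), CTGF (0.38), SEMA6A (0.87) and the weakly expressed EEF1A1P9 (1.71), PPIAP31 (1.67) and a gene known only by its clone name (1.78). The negative ones were the histone genes HIST1H1C (-0.95), HIST1H2AC (-0.76) and HIST1H2BK (-0.61), the metallothioneins MT2A (-0.44) and MT1E (-0.41), the ribosomal RPL26 (-0.71) and RPS28 (-0.42), and GLUL (-0.81), MMP9 (-0.78), RP11-78C3.1 (-1.77), IL24 (-1.44) and KISS1 (-1.09).

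Over all genes, 309 changed against day +2, 82 positive and 227 negative. Of the named genes 32 did, 10 positive and 22 negative. The positive ones were MYH16 (0.87), CLPTM1L (0.28), PDGFC (0.46), HAPLN1 (0.48), SERPINB7 (0.89), SDC2 (0.47), the same clone-named gene (1.66), CBLN4 (2.65), LRRC17 (2.13) and CLEC7A (1.86). Among the negative ones, proteases, an inhibitor and adhesion genes were CTSB (-0.36), MMP9 (-0.89), A2M (-0.72), PLAU (-0.73), PLAT (-0.61), SDC4 (-0.27), ITGA6 (-0.31) and ITGB1 (-0.22). Growth factor and signalling genes were PDGFA (-0.66), IGFBP6 (-0.43), IGF2R (-0.31), ADM (-1.26), TNFAIP3 (-0.86) and ADCY8 (-1.94). The rest were CCNE1 (-0.36), SLC7A1 (-0.27), RPS28 (-0.37), MT-ND3 (-0.49), MT-ND4L (-0.59), MT2A (-0.73), C3 (-1.40) and SLC16A14 (-1.29). CBLN4 had too few reads to be tested at day 0 alone. The causes were not tested.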

How the results depend on the processing

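The count of 3496 genes at day 0 was 3299 in DESeq2, 3337 without the low-count filter, 2593 in edgeR and 2842 in DESeq2 on all 27 libraries, 3344 after the GC adjustment (chosen after seeing the data), and 2464 to 3224 when 1 library was left out. Counting only genes called in one fit or the other, no named gene changed direction at day 0. List medians near 0 did: the GC adjustment took collagens from -0.06 to 0.03, glycolysis from -0.04 to 0.01, MMP2 activation and inhibition from -0.03 to 0.04 and YAP targets from -0.02 to 0.01. The interaction counts moved more. Against day -2, 92 genes became 168 in DESeq2, 187 without the filter and 222 after the GC adjustment, and 45 to 178 when 1 library was left out (178 without MMP2sh2 day -2 replicate 3, where 66.3% of the calls were negative beside 39.1% with all libraries). Against day +2, 309 became 525 in DESeq2 and 477 after the GC adjustment, and 175 to 299 when 1 library was left out. The cause was not tested. Of 3325 recomputed values of named genes, 258 lost their call and 16 gained one. Same-numbered libraries of the lines shared only a number (correlations of their deviations 0.023, 0.031 and -0.020). With the replicate number as a block, 3397 genes were called at day 0, 134 interactions against day -2 and 284 against day +2. The block ended the calls of COL5A3, CX3CL1, ITGA8, RPSA and TGFB3.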
